A study of Arabidopsis thaliana with 12 samples.

Results

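The response of Arabidopsis thaliana shoots to AZD8055 was followed across all genes in 6 of the 12 libraries of the series, 3 from shoots kept with the inhibitor and 3 from mock shoots. The libraries were chosen by their treatment labels alone. All plants were of the Col-0 accession with no mutation or transgene named, and both groups were 4 days old, grew in continuous light and were kept for 8 h on medium with either 2 µM AZD8055 or the solvent DMSO. Seedlings were treated whole and their shoot tissue was then harvested, so every level below is an average over the cell types of the shoot. The other 6 libraries came from shoots kept for the same time with KU63794 at 20 µM or TORIN1 at 10 µM and appear only where AZD8055 is set beside them. Polyadenylated RNA was sequenced.

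AZD8055 is a small molecule that competes with ATP in the active site of TOR. TOR is a protein kinase that in plants works in a complex with RAPTOR and LST8 and couples sugar, nitrogen and hormone signals to growth. When active it promotes the making of ribosomes, the loading of mRNAs on them, nucleotide synthesis and entry into S phase, and it restrains autophagy, the delivery of cell contents to the vacuole for breakdown. The kinase SnRK1, which is active when energy is short, works against it in many of these processes.

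Total counts were between 7706957 and 14220537 per library, and 3 counts, the most that a count of 0 leaves possible, equal 0.205 to 0.391 CPM (counts per 1000000, on library totals adjusted by the TMM method), for counting error only. Levels of a gene are given throughout in CPM for replicates 1, 2 and 3 in that order, and CPM values of different genes are not corrected for gene length. The labels do not tell if replicates were grown separately, and p-values therefore cover the spread between these samples, which may be technical. In such tissue, fewer cells of a type and less RNA per cell cannot be told apart. Markers of green tissue were abundant: genes of photosystems and antennae summed to 59227, 57783 and 56492 CPM in mock and 75156, 61930.1 and 81096 CPM with AZD8055. Of 13 root markers 7 were too low to be tested, and the 6 tested summed to 13.6, 14.7 and 10.4 CPM in mock and 12.1, 8.89 and 10.4 CPM with AZD8055. Of 17 seed storage and oil body markers, the 12 tested summed to 49.6, 59.4 and 85.1 CPM in mock and 192, 54.2 and 0.516 CPM with AZD8055. AZD8055 replicate 1 held the most and replicate 3 next to none, and none of the 12 was called. Across genes, log2 CPM correlated at 0.959 to 0.974 between AZD8055 libraries, at 0.978 to 0.983 between mock libraries and at 0.940 to 0.962 between the groups. Plastid-encoded genes took 0.305 ± 0.019% (SD, n = 3) of counts in mock and 0.331 ± 0.035% (SD, n = 3) with AZD8055, a difference that did not pass an exact two-sided permutation test (p = 0.4, where 3 against 3 libraries cannot give less than 0.1). The strand setting and the handling of shared reads are not stated, and values of near-identical family members and of genes that overlap another gene are uncertain.

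Of 17933 genes tested, 2577 rose and 2884 fell with AZD8055 at an edgeR adjusted p below 0.05, that is 14.4% and 16.1% of the genes tested and 30.5% in either direction. These shares are the background against which the gene groups below are read. They are not matched for level: among the 3587 genes with the highest levels, 811 rose and 903 fell. Whether called or not, 20.7% of the genes tested had all AZD8055 libraries above all mock libraries, and 22.8% had them all below. Genes named by the rule given under processing had to be without overlap, so for them it is no further result. Most changes were small. Of the called genes 75.0% differed by less than 2-fold, the median log2 fold change was 0.61 among those that rose and -0.71 among those that fell, and the median over all genes tested was 0.0012. At least 2-fold changes were called for 538 higher genes (3% of those tested) and 829 lower genes (4.62%), and at least 4-fold changes for 105 and 76. Highly expressed genes were called more often: the share called was 9.62% among the 20% of genes with the lowest levels and 47.8% among the 20% with the highest, while the median size of a called change was 1.47 and 0.55 on the log2 scale. The plot of change against level shows this as a narrow band on the right and a wide, sparsely called one on the left. Of the called genes 2524 higher and 2854 lower ones were protein-coding, and among 184 long non-coding RNAs tested 29 rose and 17 fell.

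**Figure D1:**
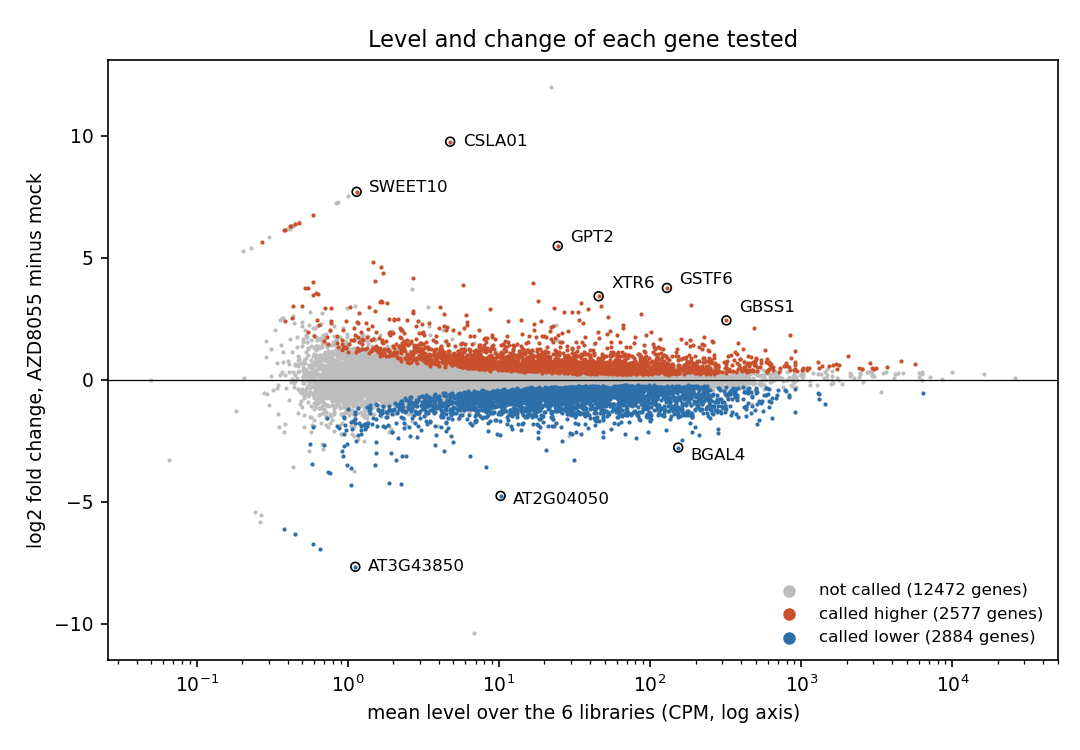
Log2 fold change of AZD8055 over mock (vertical axis) against mean level in CPM over the 6 libraries (horizontal axis, log scale), 1 point for each of the 17933 genes tested, with the 2577 called higher and the 2884 called lower in colour. Called changes lie close to 0 at high levels and spread far from it at low levels.

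The authors' deposited table for this comparison lists 5308 genes, 2570 higher and 2738 lower with AZD8055 once the sign, which it gives as mock over inhibitor, is turned. Of the genes listed in the authors' deposited table, 96.1%, or 5103, were called here in the same direction and 0 in the opposite one. These are 93.4% of the genes called here, and 358 called genes are not in the authors' deposited table. Sizes differ for some genes. For GPT2 the authors' deposited table gives a log2 fold change of 2.01, where the fit used here gives 5.48.

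The largest rises belonged to genes with next to no mRNA in mock shoots. GPT2 (AT1G61800, chr1:22824414-22826902), the transporter that carries glucose 6-phosphate into plastids, was measured at 0.821, 2.19 and 0 CPM in mock and 56.6, 45.5 and 41.9 CPM with AZD8055. All 3 AZD8055 libraries stood far above all mock libraries, of which replicate 3 had no count (log2 fold change 5.48, SE 0.55, edgeR adjusted p = 6.14e-05). Without mock replicate 2, the highest of the mock libraries, the log2 fold change of GPT2 was 6.48. SWEET10 (AT5G50790), a sugar efflux carrier, had 0 counts in every mock library and 1.99, 2.37 and 2.49 CPM with AZD8055. With 3 counts taken for each mock library, its mean was at least 7.78-fold higher (edgeR adjusted p = 0.000404). NRT2:1 (AT1G08090), a high-affinity nitrate transporter, was found at 0.205, 0 and 0 CPM in mock and 3.12, 2.67 and 2.84 CPM with AZD8055. Its 3 counts in mock replicate 1 were the only ones in that group, the AZD8055 libraries lay close together, and the log2 fold change was 4.85 (SE 0.59, edgeR adjusted p = 3.24e-05), or 7.99 without mock replicate 1.

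Among higher genes with a measurable mock level was AT1G80130, which encodes a tetratricopeptide repeat protein. Its levels were 2.26, 2.09 and 1.43 CPM in mock and 31.9, 29 and 34.2 CPM with AZD8055, with both groups tight and far apart (log2 fold change 3.99, SE 0.20, edgeR adjusted p = 4.98e-08). GSTF6 (AT1G02930), a glutathione transferase, stood at 21.5, 16.4 and 14.7 CPM in mock and 398, 163 and 162 CPM with AZD8055. AZD8055 replicate 1 stood well above the other AZD8055 libraries, which were in turn far above mock (log2 fold change 3.76, SE 0.42, edgeR adjusted p = 0.000148). XTR6 (AT4G25810), a xyloglucan endotransglucosylase of the cell wall, was measured at 7.39, 8.66 and 7.3 CPM in mock and 73.1, 64.7 and 113 CPM with AZD8055 with its highest level in AZD8055 replicate 3 (log2 fold change 3.42, SE 0.39, edgeR adjusted p = 0.000162). PAP1 (AT1G56650), the MYB factor that turns on anthocyanin genes, stood at 5.55, 2.66 and 1.43 CPM in mock and 34.5, 36 and 28.8 CPM with AZD8055, with the widest spread among mock libraries (log2 fold change 3.24, SE 0.52, edgeR adjusted p = 0.00138, or 3.96 without mock replicate 1). CYP722A1 (AT1G19630), a cytochrome P450, was detected at 1.51, 0.285 and 0 CPM in mock and 13.9, 11.4 and 7.83 CPM with AZD8055, with a log2 fold change of 3.89, or 5.97 without mock replicate 1. CYP722A1 overlaps a gene on the other strand.

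For the rest of the 15 largest rises, leaving out 1 library moved the size or ended the call. GSTF5 (AT1G02940), the TIR-domain gene AT2G20142 and the myrosinase-binding protein gene MBP1 (AT1G52040) had counts in mock replicate 1 alone of the mock libraries. Without it their log2 fold changes went from 4.64 to 8.15, from 4.37 to 8.18 and from 3.23 to 8.08. The MATE transporter gene AT1G73700 ranged from 2.44 without mock replicate 1 to 8.08 without mock replicate 2, around log2 fold change 3.20 with all libraries. The non-coding RNA AT1G20515, which overlaps a gene on the other strand, ranged from 3.24 to 8.02 around log2 fold change 4.03 as mock replicate 1 or 3 was left out. BOR5 (AT1G74810), of the borate transporter family, stood at 9.54, 4.45 and 1.29 CPM in the AZD8055 libraries, and its log2 fold change of 4.16 was 3.31 without the first of these. Its call was lost with limma voom (adjusted p = 0.0625). CSLA01 (AT4G16590), of the cellulose synthase-like family, had no count in mock and 20.7, 6.42 and 1.38 CPM with AZD8055. The mean of its AZD8055 libraries was 9.51 CPM, or 32.3-fold over 3 counts in each mock library, with an edgeR adjusted p of 0.0391. AZD8055 replicate 1 held most of that mean, so the fold is no lower bound for each library. The adjusted p of CSLA01 rose past the threshold without AZD8055 replicate 1 (0.0676) or 2 (0.0589) or any mock library (0.0716 to 0.0901). It did so too with limma voom (0.23), the 6 libraries alone (0.133), no filter beyond 1 count (0.0591) and the replicate number as a block (0.055). The AZD8055 libraries held seed storage mRNA in the same order, which the other groups did not follow. The seed storage gene CRU3 (AT4G28520) was at 14.6, 24.8 and 32.9 CPM in mock, where CSLA01 had no count. With KU63794, CRU3 was at 0, 91.97 and 69.7 CPM and CSLA01 at 5.39, 0 and 3.15 CPM. With TORIN1, CRU3 was at 84.2, 0.906 and 0 CPM and CSLA01 at 3.4, 3.51 and 3.51 CPM. The part of the seed mRNA in the rise of CSLA01 was not tested.

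Among the 15 largest falls was AT2G04050, a MATE-family efflux transporter, which fell from 22.2, 22.6 and 14.5 CPM in mock to 0.434, 1.19 and 0.602 CPM with AZD8055. The highest AZD8055 library stood far below the lowest mock library (log2 fold change -4.75, SE 0.31, edgeR adjusted p = 4.57e-07). AT3G59930, which encodes a defensin-like peptide, fell from 15.9, 18.3 and 11.2 CPM to 0.694, 1.48 and 1.63 CPM (log2 fold change -3.58, SE 0.32, edgeR adjusted p = 2.89e-06), and a second defensin-like gene, AT5G33355, fell from 2.26, 3.99 and 1.96 to 0.0867, 0.494 and 0.43 CPM. AT1G48598, which the reference does not describe, was the most abundant of the 15 largest falls. It went from 54.6, 53.4 and 62.6 CPM to 1.21, 9.19 and 7.22 CPM, lowest by far in AZD8055 replicate 1 (log2 fold change -3.29, SE 0.59, edgeR adjusted p = 0.00288). AT3G43850, an uncharacterized gene, went from 1.37, 3.14 and 2.22 CPM to 0 counts in all 3 AZD8055 libraries, with a mean at least 8.25-fold lower (edgeR adjusted p = 0.00694).

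The other large falls were of genes at low levels. AT1G70880 of the polyketide cyclase family and AT5G25230 of the elongation factor G family had log2 fold changes of -3.27 and -3.50, the second -7.99 without AZD8055 replicate 3. The serine carboxypeptidase-like gene scpl2 (AT1G73300) was at a log2 fold change of -3.12, or -3.92 without AZD8055 replicate 2 and -2.53 without replicate 3. AT1G15840 was at a log2 fold change of -4.27, or -8.59 without AZD8055 replicate 1, and AT5G23700, which shares bases with a gene on the other strand, at -2.98, or -2.39 without AZD8055 replicate 3. RBOHB (AT1G09090), an NADPH oxidase, had a log2 fold change of -4.33, was at -7.55 without AZD8055 replicate 2 and was no longer called without AZD8055 replicate 3 (edgeR adjusted p = 0.0533). Calls of the aspartyl protease gene AT3G51350, the SKU5-like gene sks15 (AT4G37160) and the kinase-family gene AT5G14470 were each lost in 4 or 5 of the 6 fits that leave out 1 library: AT3G51350 kept its call only without AZD8055 replicate 3 (adjusted p 0.0592 to 0.0862 otherwise), sks15 only without AZD8055 replicate 2 or mock replicate 3 (0.0718 to 0.0798) and AT5G14470 only without mock replicate 1 (0.0582 to 0.081).

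**Figure D2:**
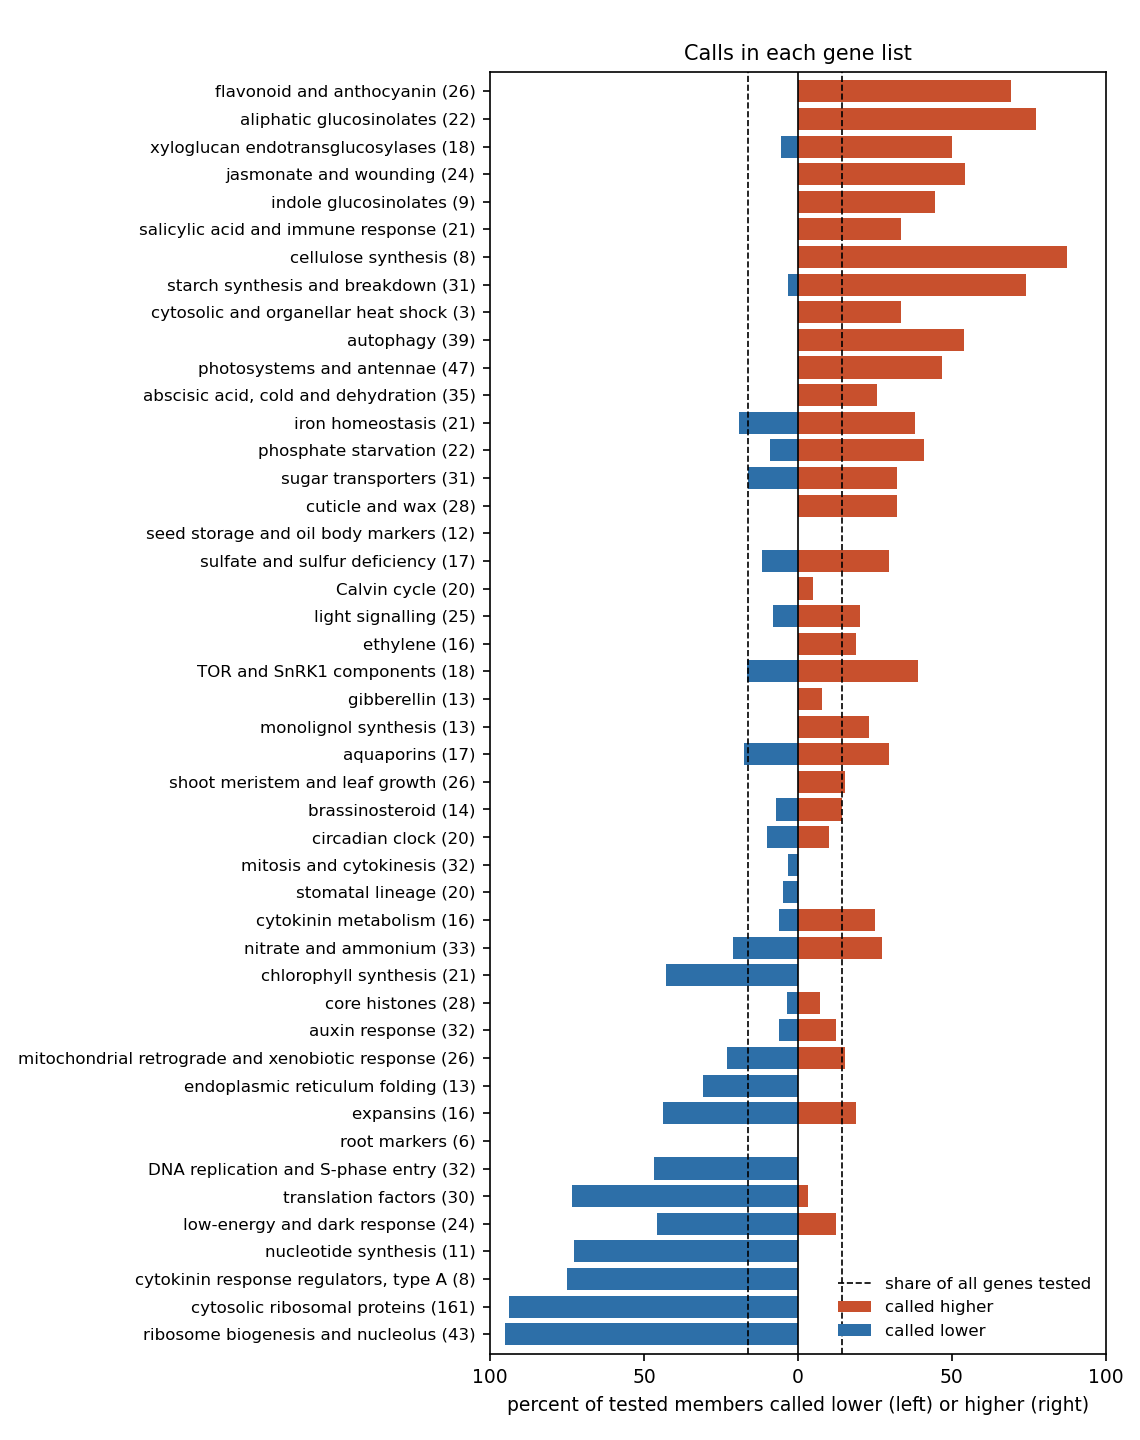
Share of each gene list called higher and lower with AZD8055 (horizontal axis, percent of members tested, lower to the left and higher to the right), ordered by median log2 fold change, with the shares over all 17933 genes tested, 16.1% and 14.4%, as dashed lines. Ribosomal proteins and ribosome biogenesis have the largest shares called lower, and cellulose synthesis, aliphatic glucosinolates and starch the largest shares called higher.

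Genes of protein synthesis fell together. Of 161 cytosolic ribosomal protein genes tested, 151 fell and 0 rose, against 16.1% and 14.4% of all genes, with a median log2 fold change of -1.23. Together they took 30285, 30080.2 and 29109 CPM in mock and 15248, 13522 and 10720.1 CPM with AZD8055, lowest in AZD8055 replicate 3 and without overlap of the groups. All 10 members that were not called had fold changes below 0 as well. The smallest p-values were those of AT3G14600 (L18ae), ATL5 (AT3G25520, L5, which brings 5S RNA into the large subunit), AT3G53740 (L36e) and AT4G10450 (L6). ATL5 stood at 653, 673 and 566 CPM in mock and 256, 222 and 209 CPM with AZD8055, with the 3 libraries of each group close together (log2 fold change -1.46, SE 0.11, edgeR adjusted p = 1.62e-06). AT4G10450 was at 55.5, 55.2 and 48.2 CPM in mock and 10.2, 15.9 and 10.4 CPM with AZD8055 and fell further than the median of its group (log2 fold change -2.13, SE 0.17, edgeR adjusted p = 1.76e-06). AT3G14600 and AT3G53740 were at 119.6, 109.7 and 108 CPM in mock and 52.4, 57 and 48.2 CPM with AZD8055 and at 229.7, 221 and 214 CPM in mock and 82.6, 101 and 77 CPM with AZD8055, with log2 fold changes of -1.10 and -1.35 (SE 0.084 and 0.10).

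The start regions of ribosomal protein genes in plants are known for 2 short motifs, the telo-box (AAACCCTA) and site II (TGGGCC or TGGGCT), so the 250 bases before each annotated gene start were searched on both strands in the RefSeq genome of build TAIR10.1. Site II letters were found in 23.2% of the windows of all tested genes, in 32.4% of those of genes that fell, in 17.3% of those of genes that rose and in 70.8% of those of the 161 ribosomal protein genes. For the telo-box these shares were 3.57%, 6.61%, 1.64% and 17.4%. With ribosomal protein and biogenesis genes left out, 29.7% of the remaining windows of lower genes held site II and 5.96% the telo-box. The windows of the ribosomal protein genes with the smallest p-values and at least 100 bases free of another gene are shown here on the gene's strand, 5′ to 3′, ended where a neighbouring gene begins, with motif matches in capitals. They are AT3G14600 at chr3:4910522-4910628 (plus strand), AT3G53740 at chr3:19915067-19915256 (minus strand) and AT4G10450 at chr4:6464559-6464808 (minus strand).
AT3G14600: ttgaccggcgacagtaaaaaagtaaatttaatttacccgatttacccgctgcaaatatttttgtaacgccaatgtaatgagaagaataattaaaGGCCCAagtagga
AT3G53740: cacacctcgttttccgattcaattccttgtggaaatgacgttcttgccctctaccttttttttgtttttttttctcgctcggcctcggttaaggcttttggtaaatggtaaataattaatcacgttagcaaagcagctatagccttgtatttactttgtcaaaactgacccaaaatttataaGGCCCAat
AT4G10450: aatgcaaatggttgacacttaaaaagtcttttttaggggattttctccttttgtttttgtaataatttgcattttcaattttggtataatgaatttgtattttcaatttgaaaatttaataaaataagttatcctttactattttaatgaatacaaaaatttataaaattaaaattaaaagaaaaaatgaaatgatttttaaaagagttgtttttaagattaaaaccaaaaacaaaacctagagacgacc
AT3G14600 and AT3G53740 each hold site II on the opposite strand, 13 and 8 bases before the start. AT4G10450, which fell the furthest of the 3, holds none of the motifs searched in these bases.

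Ribosome assembly went the same way. Of 43 genes of ribosome biogenesis and the nucleolus 41 fell and 0 rose, with a median log2 fold change of -1.30, and their sum was 3624, 3669 and 3619 CPM in mock and 1643, 1705 and 1124 CPM with AZD8055. The bystin-like gene AT1G31660, a factor of small-subunit maturation, was at 45.8, 48.2 and 47.5 CPM in mock and 18.8, 19.9 and 13 CPM with AZD8055 (log2 fold change -1.45, SE 0.13, edgeR adjusted p = 2.89e-06). AT2G37990, a ribosome biogenesis regulator, was at 67, 70.3 and 64.7 CPM in mock and 30.5, 27.6 and 20.6 CPM with AZD8055 (log2 fold change -1.36, SE 0.12, edgeR adjusted p = 2.67e-06). Both were lower in every AZD8055 library than in any mock library. eIF6A (AT3G55620), which keeps the subunits apart until they are mature, had the smallest fold of the 4 members named by p-value (log2 fold change -0.83), and FZF (AT2G24500), a zinc finger protein, was at -1.12.

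Of 30 translation factors 22 fell and 1 rose, with a median log2 fold change of -0.58, less than the ribosomal proteins themselves. The poly(A)-binding protein gene PAB4 (AT2G23350) fell from 226, 239.7 and 235 CPM to 97, 87.6 and 67.4 CPM (log2 fold change -1.48, SE 0.13, edgeR adjusted p = 3.27e-06). EIF3E (AT3G57290) and EIF3A (AT4G11420), subunits of initiation factor 3, had log2 fold changes of -1.08 and -0.81, and LSP1 (AT5G35620), the cap-binding protein of the plant-specific iso form, -0.97. Each of these stood lower in all AZD8055 libraries than in any mock library. The single member that rose was ELF5A-3 (AT1G69410), a form of factor 5A (log2 fold change 0.56), whose call was lost without mock replicate 1, mock replicate 2 or AZD8055 replicate 1 (0.095, 0.156 and 0.187).

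Genes of nucleotide synthesis fell as well: 8 of 11 genes of purine and pyrimidine synthesis fell and 0 rose. PUR5 (AT3G55010), of the purine pathway, was at 62.6, 67.7 and 69.6 CPM in mock and 24.1, 26.1 and 18.9 CPM with AZD8055 (log2 fold change -1.53, SE 0.14, edgeR adjusted p = 3.81e-06). Carbamoyl phosphate synthetase, which feeds pyrimidine synthesis, fell in both of its subunits, CARA (AT3G27740) with a log2 fold change of -1.03 and CARB (AT1G29900) with -0.95. AT3G54470, which makes UMP, was at a log2 fold change of -1.23. The members not called were AT4G20320, APT1 (AT1G27450) and UK/UPRT1 (AT5G40870), the latter pair being salvage enzymes.

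Genes of S-phase entry and DNA replication were partly lower and those of mitosis were not. Of 32 replication genes 15 fell and 0 rose (median log2 fold change -0.42), whereas of 32 genes of mitosis and cytokinesis 1 fell and 0 rose (median log2 fold change -0.062), or 2 rose without AZD8055 replicate 3. The difference between these lists was not itself tested. RNR2A (AT3G23580), a small subunit of ribonucleotide reductase, was at 34.8, 34.1 and 38.8 CPM in mock and 21.7, 24.6 and 21.8 CPM with AZD8055, with all AZD8055 libraries below mock (log2 fold change -0.66, SE 0.11, edgeR adjusted p = 0.000328). LIG1 (AT1G08130), the replicative DNA ligase, ETG1 (AT2G40550), a replication factor named as an E2F target, and CYCD2;1 (AT2G22490), a D-type cyclin, had log2 fold changes of -0.52, -0.53 and -0.75. CKS2 (AT2G27970), a subunit of cyclin-dependent kinases, was the mitotic member that fell (log2 fold change -0.64). Replicate 3 was the lowest AZD8055 library in both lists, with 892, 882 and 908 CPM in mock and 710.3, 753 and 549 CPM with AZD8055 for replication and 416, 359 and 389 CPM in mock and 423, 431 and 292 CPM with AZD8055 for mitosis, where the groups overlapped. Of 28 core histone genes 2 rose and 1 fell, but 6 fell without AZD8055 replicate 1 and 0 without mock replicate 1, 2 or 3 or AZD8055 replicate 2, and 1 rose without mock replicate 3 or AZD8055 replicate 1. AT5G10980, a histone gene that rose by a log2 fold change of 0.51, kept its call in all alternatives, while RAT5 (AT5G54640, 0.51) and HTA7 (AT5G27670, -0.28) did not. RAT5 lost its call without mock replicate 3 (0.0539) or AZD8055 replicate 1 (0.0576), and HTA7 without any 1 of 5 libraries (0.06 to 0.141).

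Cytokinin is a hormone of shoot growth and cell division, and its early response genes are the type-A response regulators, which dampen its signal. Of 8 tested 6 fell and 0 rose. ARR7 (AT1G19050) was at 22.5, 26.2 and 19.9 CPM in mock and 11.4, 9.98 and 8.86 CPM with AZD8055 (log2 fold change -1.18, SE 0.17, edgeR adjusted p = 0.000102), ARR6 (AT5G62920) at 12.1, 8.66 and 11.5 CPM in mock and 4.94, 4.74 and 4.9 CPM with AZD8055 (log2 fold change -1.14, SE 0.19, edgeR adjusted p = 0.00047) and ARR4 (AT1G10470), the most abundant by count, at 113, 102 and 111 CPM in mock and 54.3, 66.6 and 63 CPM with AZD8055 (log2 fold change -0.83, SE 0.12, edgeR adjusted p = 0.000102). In each of them the groups stood clear of each other, and so they did in ARR9 (AT3G57040, log2 fold change -0.99). The 2 members not called were ARR15 (AT1G74890), with a log2 fold change of -1.83 at about 2 CPM or less, and RR16 (AT2G40670), with -0.29. Genes that make or degrade cytokinin did not move one way. IPT9 (AT5G20040), an isopentenyltransferase that modifies tRNA, was at 44.9, 46 and 52.3 CPM in mock and 21.9, 25.3 and 23.5 CPM with AZD8055 (log2 fold change -1.02, SE 0.11, edgeR adjusted p = 1.2e-05), while IPT1 (AT1G68460), which makes the free hormone, rose by a log2 fold change of 1.13 at a low level, and LOG8 (AT5G11950) and LOG5 (AT4G35190), of the family that activates cytokinin ribotides, rose by 0.90 and 0.85. In all 4 of 16 rose and 1 fell, or 2 without AZD8055 replicate 3.

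**Figure D3:**
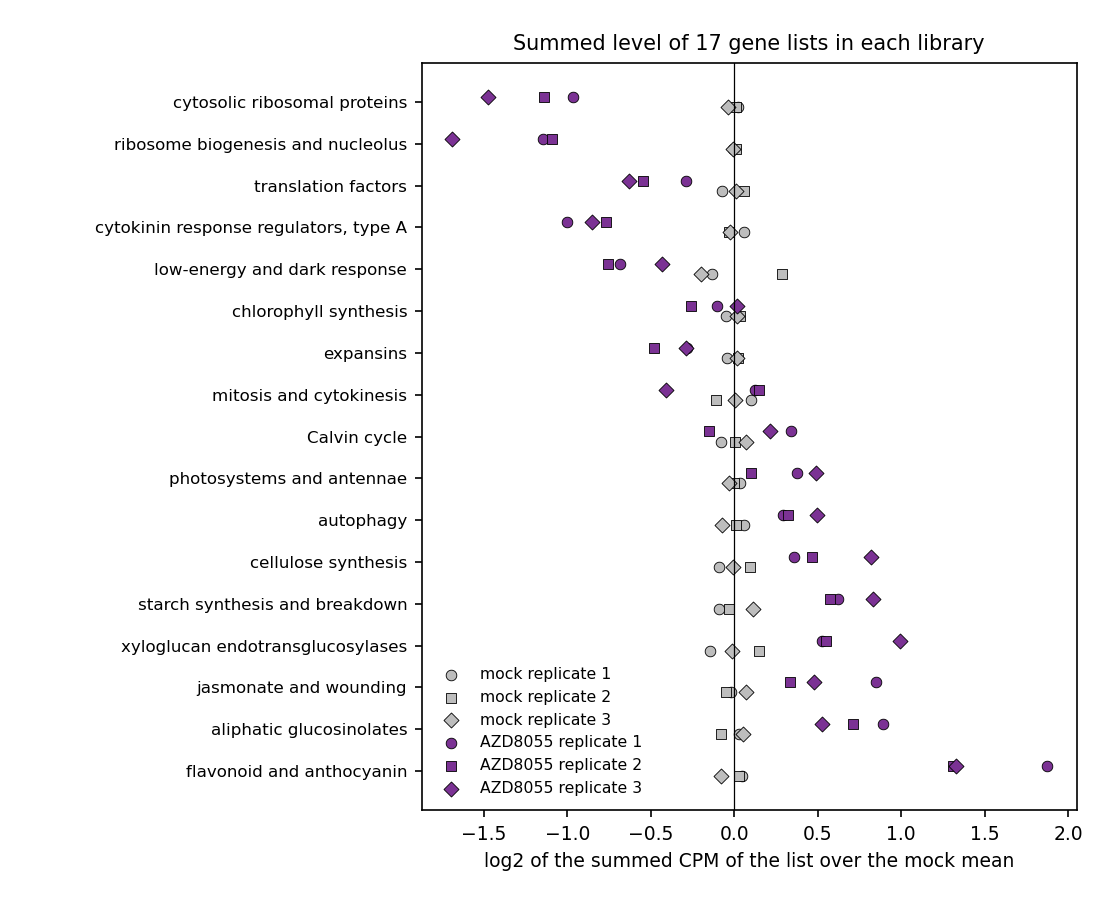
Log2 of the summed CPM of each of 17 gene lists over the mean of the 3 mock libraries (horizontal axis), 1 point for each of the 6 libraries, with the marker shape for the replicate. The ribosomal and biogenesis sums of all 3 AZD8055 libraries lie below all mock libraries, the flavonoid, starch and autophagy sums lie above them, and the mitosis and Calvin cycle sums overlap.

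Autophagy genes rose modestly. Of 39 tested 21 rose and 0 fell, or 1 fell without AZD8055 replicate 3, with a median log2 fold change of 0.41 and a sum of 1298, 1251 and 1184 CPM in mock and 1527, 1552 and 1752 CPM with AZD8055. AtATG18a (AT3G62770), a phosphoinositide-binding protein needed for autophagosome formation, was at 19.3, 16 and 15.9 CPM in mock and 30.8, 29 and 30.4 CPM with AZD8055 (log2 fold change 0.81, SE 0.12, edgeR adjusted p = 0.000131). ATG3 (AT5G61500), the enzyme that joins ATG8 to lipid, was at 63.5, 65.5 and 66.9 CPM in mock and 109, 98.3 and 104 CPM with AZD8055 (log2 fold change 0.67, SE 0.10, edgeR adjusted p = 0.000185), and APG8H (AT3G15580), itself a form of ATG8, at 54.8, 54.1 and 48.8 CPM in mock and 71.9, 81.8 and 101 CPM with AZD8055 (log2 fold change 0.69, SE 0.11, edgeR adjusted p = 0.00025). VPS34 (AT1G60490), the lipid kinase that starts the process, rose by a log2 fold change of 0.58. None of the AZD8055 values of these 4 reached down into the mock range. Not called were, among others, ATG8E (AT2G45170, log2 fold change -0.16), ATG8B (AT4G04620, log2 fold change -0.33) and APG5 (AT5G17290, log2 fold change -0.30).

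Of the inhibited complex itself, TOR, RAPTOR1 and LST8-1 rose by small amounts. TOR (AT1G50030) was measured at 113, 121 and 119 CPM in mock and 135, 148 and 168 CPM with AZD8055 (log2 fold change 0.35, SE 0.098, edgeR adjusted p = 0.0135), a call that was lost without mock replicate 1 (0.0578) or AZD8055 replicate 3 (0.0619). Its partner genes RAPTOR1 (AT3G08850) and LST8-1 (AT3G18140) rose by a log2 fold change of 0.49 (SE 0.10) and 0.44 (SE 0.077), from 128, 141 and 131 CPM to 173, 178 and 208 CPM and from 112, 104 and 106 CPM to 145, 143 and 146 CPM. KIN10 (AT3G01090), the catalytic subunit of SnRK1, was at 65.2, 63.9 and 62.6 CPM in mock and 74.5, 78.4 and 88.5 CPM with AZD8055 (log2 fold change 0.33), and its call was lost without AZD8055 replicate 3 (0.0569). The strongest change of the list was a fall. AT3G48390, an MA3-domain protein of a small family of translation regulators acting downstream of TOR, went from 2.81, 6.94 and 3.26 CPM to 0.52, 0.692 and 0.258 CPM (log2 fold change -3.13, SE 0.49, edgeR adjusted p = 0.000238). Its relative AT5G63190 fell with a log2 fold change of -0.61 from 41.8, 40.3 and 31.5 CPM, and shares bases with a non-coding gene on the other strand. Of the 18 components 7 rose and 3 fell, and the number that rose was 4 without mock replicate 1 and 4 without AZD8055 replicate 3.

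Members of the list for low energy and darkness were lower more often than higher. The list was written by hand, and the direction in which each member responds to low energy was not checked. Of 24 tested 11 fell and 3 rose, with a median log2 fold change of -0.75. BGAL4 (AT5G56870), a beta-galactosidase, stood at 229, 342 and 232 CPM in mock and 28.4, 40.3 and 48.6 CPM with AZD8055 (log2 fold change -2.78, SE 0.35, edgeR adjusted p = 0.000272). BT2 (AT3G48360), a BTB and TAZ domain protein whose mRNA sugars repress, stood at 233, 316 and 283 CPM in mock and 53.2, 46.3 and 50.6 CPM with AZD8055 (log2 fold change -2.47, SE 0.36, edgeR adjusted p = 0.000746). Both had their highest level in mock replicate 2. The breakdown of branched-chain amino acids was lower at MCCB (AT4G34030), a subunit of methylcrotonyl-CoA carboxylase (log2 fold change -0.77), and at BCAT-2 (AT1G10070), a branched-chain aminotransferase (-2.12). TPS5 (AT4G17770), a trehalose-phosphate synthase-like protein, rose from 10.1, 10.7 and 12 CPM to 46.1, 39.9 and 37.1 CPM (log2 fold change 1.91, SE 0.17, edgeR adjusted p = 2.53e-06). The dark-induced genes DIN2 (AT3G60140), SEN1 (AT4G35770) and DIN10 (AT5G20250) had log2 fold changes of -0.97, -1.01 and -0.70 and were not called. DIN4 (AT3G13450) and ASN1 (AT3G47340) were called lower. Both calls were lost in several alternatives, among them the fit without mock replicate 2 (edgeR adjusted p = 0.129 and 0.0845). The number that rose was 1 without mock replicate 3, and the number that fell was 6 without mock replicate 2 and 17 when the 6 libraries were fitted alone.

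Genes of starch synthesis and of starch breakdown rose. Of 31 genes 23 rose and 1 fell, with a median log2 fold change of 0.55, and the sum was 6061, 6332 and 6998 CPM in mock and 9924, 9635 and 11489.5 CPM with AZD8055. APL3 (AT4G39210), a sugar-inducible large subunit of ADP-glucose pyrophosphorylase, was at 26.4, 20.5 and 23.7 CPM in mock and 184, 144 and 126 CPM with AZD8055 (log2 fold change 2.68, SE 0.25, edgeR adjusted p = 1.4e-05). GBSS1 (AT1G32900), the granule-bound synthase that makes amylose, was at 108, 106 and 86 CPM in mock and 561, 488 and 571 CPM with AZD8055 (log2 fold change 2.43, SE 0.21, edgeR adjusted p = 4.69e-06). Their lowest AZD8055 library was well above their highest mock library. On the breakdown side, SEX4 (AT3G52180), a phosphatase that removes phosphate from starch, was at 85.1, 86.7 and 100.4 CPM in mock and 274, 275 and 289.6 CPM with AZD8055 (log2 fold change 1.62, SE 0.15, edgeR adjusted p = 3.78e-06) and ISA3 (AT4G09020), a debranching enzyme, at 117, 113 and 129 CPM in mock and 327, 281 and 298 CPM with AZD8055 (log2 fold change 1.33, SE 0.14, edgeR adjusted p = 1.2e-05). The member that fell was BAM4 (AT5G55700, log2 fold change -0.37), a beta-amylase-like protein, and that call was lost without mock replicate 2 (0.0866).

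Among 31 sugar transporter genes 10 rose and 5 fell. GPT2 and SWEET10, described above, were among the former. ERDL6 (AT1G75220), which exports glucose from the vacuole, fell from 228, 286 and 245 CPM to 88.1, 129.9 and 149 CPM (log2 fold change -1.05, SE 0.18, edgeR adjusted p = 0.000541), and MSS1 (AT5G26340), a monosaccharide and proton symporter, from 26.6, 30.7 and 31.9 CPM to 14.6, 14.4 and 10.5 CPM (log2 fold change -1.17, SE 0.21, edgeR adjusted p = 0.000933). The AZD8055 libraries of both lay below all mock libraries.

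Flavonoid and anthocyanin genes rose. Of 26 tested 18 rose and 0 fell, with a median log2 fold change of 1.30, or 1.06 without AZD8055 replicate 1, and the sum was 646, 636 and 592 CPM in mock and 2289, 1548 and 1568 CPM with AZD8055. TT4 (AT5G13930), chalcone synthase, the entry to the pathway, was at 135, 128 and 135 CPM in mock and 504, 305 and 352 CPM with AZD8055 (log2 fold change 1.55, SE 0.21, edgeR adjusted p = 0.000165). DFR (AT5G42800) and LDOX (AT4G22880), the enzymes that lead from dihydroflavonols to anthocyanidins, rose by a log2 fold change of 3.06 (SE 0.37) and 3.03 (SE 0.40), DFR from 49.6, 40.4 and 28.5 CPM to 437, 295 and 268 CPM. UF3GT (AT5G54060), which adds sugar to anthocyanins, was at 1.03, 0.761 and 0.913 CPM in mock and 10.1, 5.53 and 6.28 CPM with AZD8055 (log2 fold change 2.99, SE 0.35, edgeR adjusted p = 2.44e-05), and GSTF12 (AT5G17220), needed to bring them into the vacuole, at 14.2, 11.7 and 9.26 CPM in mock and 62.4, 64.7 and 53.4 CPM with AZD8055 (log2 fold change 2.33, SE 0.29, edgeR adjusted p = 0.000139). The bHLH regulator TT8 (AT4G09820), which acts with MYB factors such as PAP1 (AT1G56650), was at 2.19, 2.66 and 1.04 CPM in mock and 20.3, 12.6 and 13.2 CPM with AZD8055 (log2 fold change 2.91, SE 0.37, edgeR adjusted p = 8.23e-05). The 3 AZD8055 libraries were above the mock libraries for all of these, and replicate 1 was the highest for most. Among the members not called were the regulators TTG1 (AT5G24520, log2 fold change 0.03), GL3 (AT5G41315, log2 fold change 0.27) and MYB12 (AT2G47460, log2 fold change -0.64).

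The start regions of the flavonoid genes were searched in the same way for the G-box (CACGTG), the evening element (AAAATATCT) and the TATCCA element (TATCCA), besides the motifs above. The G-box was found in 7.62% of all windows, 23.1% of the 26 flavonoid windows, 32.3% of the 31 starch windows and 8.21% of those of all genes that rose. It was also in 21.3% of the 47 photosystem windows and 10.3% of the 39 autophagy windows. The evening element was in 2.54% of all windows and 7.69% of flavonoid windows, and site II in 11.5% of flavonoid windows. Site II was in 22.6% of starch, 17% of photosystem and 33.3% of autophagy windows, beside 23.2% of all windows. The TATCCA element was in 14.2% of all windows, 11.5% of flavonoid windows, 9.68% of starch windows, 36.2% of photosystem windows and 25.6% of autophagy windows. The regions of UF3GT at chr5:21938397-21938646 (minus strand), TT8 at chr4:6181631-6181880 (plus strand) and GSTF12 at chr5:5658194-5658415 (plus strand), the flavonoid members with the smallest p-values, are shown on the gene's strand with matches in capitals.
UF3GT: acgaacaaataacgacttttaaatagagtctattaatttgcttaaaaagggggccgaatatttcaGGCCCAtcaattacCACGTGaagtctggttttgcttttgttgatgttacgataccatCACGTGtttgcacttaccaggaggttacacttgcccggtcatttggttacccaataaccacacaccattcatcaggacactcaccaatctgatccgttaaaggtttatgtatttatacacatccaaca
TT8: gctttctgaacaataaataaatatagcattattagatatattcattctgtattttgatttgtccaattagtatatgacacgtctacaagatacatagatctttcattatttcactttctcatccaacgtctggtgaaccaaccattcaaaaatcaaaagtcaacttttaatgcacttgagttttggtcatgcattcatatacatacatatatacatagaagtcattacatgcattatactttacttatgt
GSTF12: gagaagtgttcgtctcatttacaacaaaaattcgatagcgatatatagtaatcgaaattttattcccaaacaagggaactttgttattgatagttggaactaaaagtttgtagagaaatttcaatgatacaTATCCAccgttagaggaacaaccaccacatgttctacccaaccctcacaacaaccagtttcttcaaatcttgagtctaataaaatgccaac
UF3GT holds site II 185 bases and G-boxes 171 and 128 bases before its start, and GSTF12 a TATCCA match 91 bases before it. TT8 holds none of the motifs searched in these bases, with a log2 fold change of 2.91 beside 2.99 for UF3GT. In all, 53 of 17667 windows held matches of different motifs that overlap.

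Glucosinolates are the sulfur-rich defence compounds of the mustard family. Of 22 genes of the methionine-derived, aliphatic branch 17 rose and 0 fell (median log2 fold change 1.18, sum 1216, 1129 and 1236 CPM in mock and 2212, 1954 and 1719 CPM with AZD8055). CYP83A1 (AT4G13770), which oxidises the aldoximes, was at 8.08, 8.94 and 9.91 CPM in mock and 41.3, 28.5 and 22.4 CPM with AZD8055 (log2 fold change 1.79, SE 0.23, edgeR adjusted p = 6.96e-05). IMD1 (AT5G14200), an isopropylmalate dehydrogenase that lengthens the methionine side chain, was at 120.1, 85.4 and 108 CPM in mock and 319, 302 and 226 CPM with AZD8055 (log2 fold change 1.43, SE 0.22, edgeR adjusted p = 0.000501). The AZD8055 libraries lay above all mock libraries in both, as they did in FMO GS-OX1 (AT1G65860, log2 fold change 1.42), which modifies the side chain, and SUR1 (AT2G20610, log2 fold change 0.68), the C-S lyase shared by both branches. The MYB regulators of the branch, MYB28 (AT5G61420) and MYB29 (AT5G07690), had log2 fold changes of 0.45 and 0.73 and were not called. In the tryptophan-derived, indole branch 4 of 9 rose and 0 fell, or 1 fell without AZD8055 replicate 2. UGT74B1 (AT1G24100), a glucosyltransferase of the core pathway, CYP79B2 (AT4G39950), which starts from tryptophan, CYP83B1 (AT4G31500) and the sulfotransferase SOT16 (AT1G74100) rose by log2 fold changes of 1.12, 1.09, 0.93 and 1.29.

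**Figure D4:**
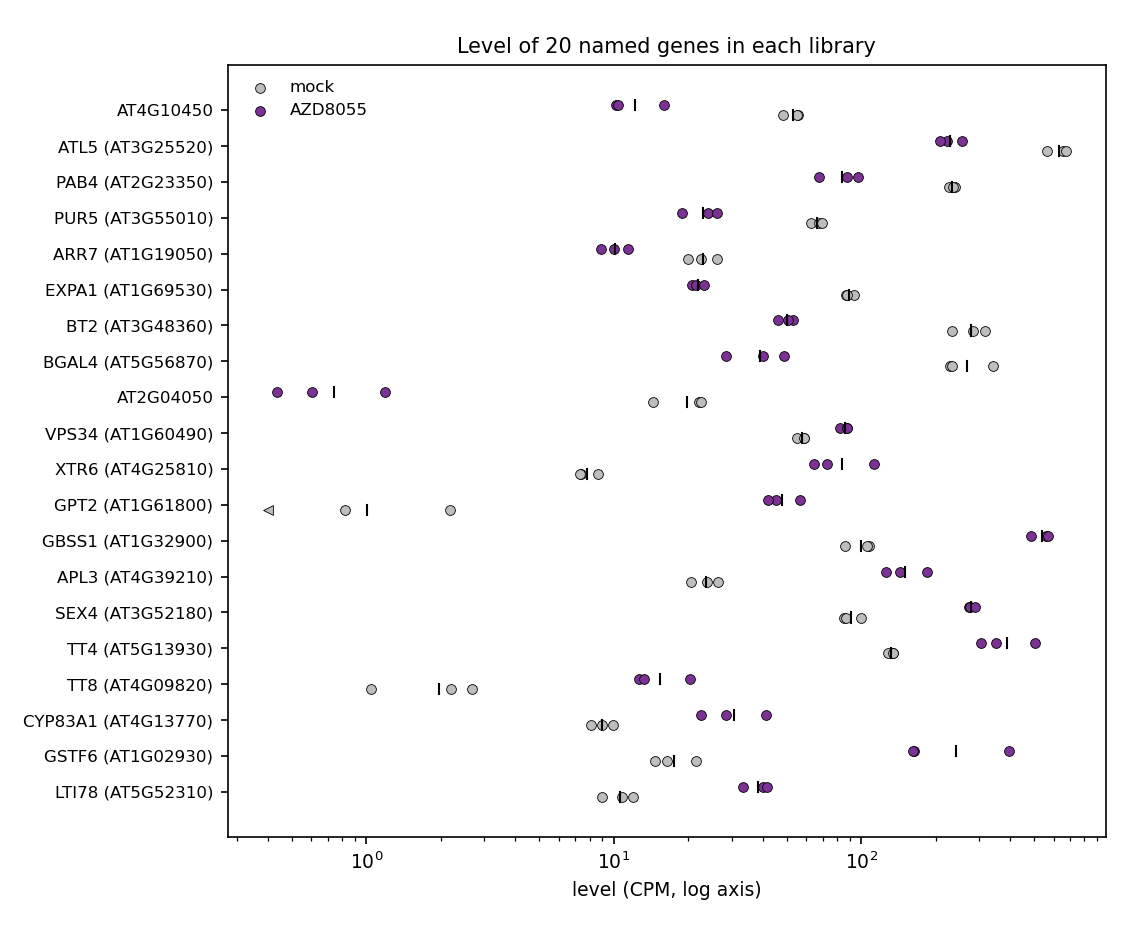
Level of 20 named genes in each library (horizontal axis, CPM on a log scale), 1 point for each of the 3 mock and 3 AZD8055 libraries, with vertical ticks at the group means and a left-pointing triangle at 0.4 CPM for a library below that level. The groups do not overlap for any of the genes shown, as the rule by which they were named required.

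Nuclear genes of the photosystems and antennae were slightly higher, and those of chlorophyll synthesis were in part lower. Of 47 photosystem genes 22 rose and 0 fell (median log2 fold change 0.37), but this number was 11, 13 and 9 without mock replicate 1, 2 or 3 and 12 without AZD8055 replicate 1 or 3. PSBQ-2 (AT4G05180), of the oxygen-evolving complex, was at 997, 966 and 934 CPM in mock and 1762, 1366 and 1735 CPM with AZD8055 (log2 fold change 0.75, SE 0.12, edgeR adjusted p = 0.000306). LHCB2.3 (AT3G27690), an antenna protein of photosystem II with near-identical relatives and a gene overlapping on the other strand, was at 281, 241 and 202 CPM in mock and 683, 399.5 and 666 CPM with AZD8055 (log2 fold change 1.27, SE 0.22, edgeR adjusted p = 0.000885), and LHCB4.3 (AT2G40100) rose by a log2 fold change of 1.06. For both genes given by library, AZD8055 replicate 2 was the lowest of its group and still above mock. Of 21 chlorophyll synthesis genes 9 fell and 0 rose, or 2 rose without AZD8055 replicate 2. HEMC (AT5G08280), which joins porphobilinogen units, was at 396, 422 and 429 CPM in mock and 257, 238 and 237 CPM with AZD8055 (log2 fold change -0.77, SE 0.12, edgeR adjusted p = 0.000175). HEME2 (AT2G40490), uroporphyrinogen decarboxylase, ALB1 (AT1G08520), a subunit of magnesium chelatase, and G4 (AT3G51820), chlorophyll synthase, fell with log2 fold changes of -0.77, -0.51 and -0.55. The other chelatase subunits CHLI1 (AT4G18480) and GUN5 (AT5G13630), with log2 fold changes of -0.16 and 0.36, were not called. Of 20 Calvin cycle genes 1 rose and 0 fell. That gene was RBCS2B (AT5G38420), a small subunit of Rubisco with near-identical copies (log2 fold change 0.65, SE 0.19, edgeR adjusted p = 0.0164), and it was not called without mock replicate 1 (0.0628) or AZD8055 replicate 1 (0.0676), while 3 rose without AZD8055 replicate 2 and 1 fell without AZD8055 replicate 1.

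Cell wall genes split by family. Of 16 expansins, proteins that loosen walls, 7 fell and 3 rose. EXPA1 (AT1G69530) was at 86.9, 93.2 and 87.5 CPM in mock and 20.8, 21.5 and 23.2 CPM with AZD8055 (log2 fold change -2.03, SE 0.13, edgeR adjusted p = 4.57e-07), and EXPA11 (AT1G20190) and EXP3 (AT2G37640) fell with log2 fold changes of -1.32 and -1.21. EXLA2 (AT4G38400), an expansin-like protein of a separate subfamily, was at 3.15, 5.42 and 3.78 CPM in mock and 14.5, 11.5 and 15.7 CPM with AZD8055 (log2 fold change 1.76, SE 0.26, edgeR adjusted p = 0.000177). In both genes the libraries of the groups were well apart, in opposite directions. Of 18 xyloglucan endotransglucosylases, which cut and rejoin wall polymers, 9 rose and 1 fell, with a median log2 fold change of 1.06. XTH9 (AT4G03210) was at 96.3, 98.9 and 109.6 CPM in mock and 216, 266 and 314 CPM with AZD8055 (log2 fold change 1.39, SE 0.12, edgeR adjusted p = 2.82e-06) and XTH18 (AT4G30280) rose by a log2 fold change of 3.15, while XTH8 (AT1G11545) fell with a log2 fold change of -0.69, or with 1 more member without AZD8055 replicate 1. Of 8 cellulose synthesis genes 7 rose, or 4 without AZD8055 replicate 3. CESA2 (AT4G39350), a catalytic subunit, was at 102, 115 and 109.9 CPM in mock and 144, 162 and 206 CPM with AZD8055 (log2 fold change 0.64, SE 0.12, edgeR adjusted p = 0.00128). CEV1 (AT5G05170), another subunit, and COB (AT5G60920), which orients the fibrils, rose by log2 fold changes of 0.67 and 0.69. Replicate 3 was the highest AZD8055 library in the sum of the group, 1575, 1791 and 1667 CPM in mock and 2149, 2312 and 2959.9 CPM with AZD8055.

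Genes of the outer surface and of lignin precursors moved less. Of 28 cuticle and wax genes 9 rose and 0 fell, and the number that rose was 4 without mock replicate 1 and 5 without mock replicate 3 or AZD8055 replicate 3. CYP86A2 (AT4G00360), a fatty acid hydroxylase of cutin synthesis, was at 40.9, 48.3 and 41.5 CPM in mock and 108, 60.2 and 91.2 CPM with AZD8055 (log2 fold change 0.99, SE 0.20, edgeR adjusted p = 0.00239). Of 13 monolignol genes 3 rose, among them CCR1 (AT1G15950, log2 fold change 0.67), cinnamoyl-CoA reductase, which lies for much of its length opposite a non-coding gene. Aquaporins went both ways, with 5 of 17 higher and 3 lower. GAMMA-TIP (AT2G36830), a water channel of the vacuole membrane, rose by a log2 fold change of 0.77, and DELTA-TIP (AT3G16240), of the same membrane, fell with a log2 fold change of -0.96. The higher count was 3 without mock replicate 2 or 3 or with the 6 libraries fitted alone, and the lower count was 5 without mock replicate 3 or AZD8055 replicate 1.

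Nitrogen genes went both ways, with 9 of 33 higher and 7 lower. NRT1.7 (AT1G69870), which moves nitrate out of old leaves through the phloem, was at 31.1, 37.2 and 42.9 CPM in mock and 126, 98.4 and 143 CPM with AZD8055 (log2 fold change 1.74, SE 0.17, edgeR adjusted p = 1e-05). GSR 1 (AT5G37600), a cytosolic glutamine synthetase, was at 129, 99.3 and 125 CPM in mock and 222, 229.6 and 232 CPM with AZD8055 (log2 fold change 0.95, SE 0.11, edgeR adjusted p = 1.53e-05). NIA1 (AT1G77760), a nitrate reductase, fell from 321, 433 and 319 CPM to 108, 105 and 168 CPM (log2 fold change -1.49, SE 0.24, edgeR adjusted p = 0.00057), and GDH1 (AT5G18170), a glutamate dehydrogenase, had a log2 fold change of -1.26. HRS1 (AT1G13300), a nitrate-inducible repressor of the phosphate starvation response, fell from 7.87, 5.14 and 8.6 CPM to 1.65, 1.48 and 1.89 CPM (log2 fold change -2.09, SE 0.26, edgeR adjusted p = 3.37e-05). Every AZD8055 value of these genes lay on one side of all mock values. The main nitrate reductase gene by count, NIA2 (AT1G37130), was at a log2 fold change of -0.36 and was not called.

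Among phosphate starvation genes 9 of 22 rose and 2 fell, the latter 0 without mock replicate 1 or 3 and 1 without AZD8055 replicate 1. MGD2 (AT5G20410) and MGDC (AT2G11810), galactolipid synthases that replace phospholipids when phosphate is short, rose by log2 fold changes of 1.68 and 1.29, MGD2 from 4.31, 3.99 and 5.08 CPM to 12.1, 15.1 and 15.5 CPM. PHO2 (AT2G33770), a ubiquitin-conjugating enzyme that limits phosphate uptake, rose as well (log2 fold change 0.55), whereas SPX1 (AT5G20150), an early marker of phosphate shortage, was at a log2 fold change of -0.037 and not called. Of 21 iron genes 8 rose and 4 fell, and the first number was 3 without mock replicate 1 or 3 or AZD8055 replicate 1, 4 without mock replicate 2 and 5 with limma voom. The ferritins FER4 (AT2G40300) and FER3 (AT3G56090), which store iron, fell with log2 fold changes of -0.71 and -0.54. AT3G25190, of the vacuolar iron transporter family, was at 12.9, 13.2 and 13.7 CPM in mock and 3.47, 5.53 and 3.44 CPM with AZD8055 (log2 fold change -1.68, SE 0.19, edgeR adjusted p = 1.41e-05). OPT3 (AT4G16370), a transporter that carries iron in the phloem, rose by a log2 fold change of 0.81. Of 17 sulfur genes 5 rose and 2 fell, the latter 1 without mock replicate 1, AZD8055 replicate 2 or AZD8055 replicate 3 and 4 when the 6 libraries were fitted alone. APR1 (AT4G04610), which reduces activated sulfate, and APS3 (AT4G14680), which activates it, rose by log2 fold changes of 0.85 and 0.66.

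Jasmonate genes were the hormone group with the largest share of rises. Of 24 tested 13 rose and 0 fell, with a median log2 fold change of 0.84, or 0.59 without AZD8055 replicate 1, and the sum was 746, 730.5 and 794 CPM in mock and 1364, 955 and 1052 CPM with AZD8055. AOC1 (AT3G25760), allene oxide cyclase, was at 5.96, 5.71 and 5.87 CPM in mock and 19.9, 13.7 and 17.5 CPM with AZD8055 (log2 fold change 1.54, SE 0.15, edgeR adjusted p = 5.8e-06), and OPR3 (AT2G06050), which completes the ring reduction, at 13.6, 12.9 and 16 CPM in mock and 27.8, 27 and 22.7 CPM with AZD8055 (log2 fold change 0.87, SE 0.16, edgeR adjusted p = 0.000752). LOX3 (AT1G17420), a lipoxygenase of the first step, rose by a log2 fold change of 1.06, and OPCL1 (AT1G20510), a ligase that readies the precursor for shortening, by 1.17. The groups stood apart in all 4, with AZD8055 replicate 1 at the top of the sum. MYC2 (AT1G32640), the central transcription factor of the pathway, had a log2 fold change of 0.38 and was not called.

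In the salicylic acid and immune group 7 of 21 rose and 0 fell, and the number was 3 without AZD8055 replicate 3 and 4 with limma voom. WRKY18 (AT4G31800), a transcription factor, was at 7.94, 9.8 and 10 CPM in mock and 17.4, 17.9 and 28.4 CPM with AZD8055 (log2 fold change 1.21, SE 0.27, edgeR adjusted p = 0.00439), and RBOHD (AT5G47910), the main NADPH oxidase of the immune burst, at 24.4, 24.5 and 31 CPM in mock and 57.2, 39.1 and 41.7 CPM with AZD8055 (log2 fold change 0.80, SE 0.14, edgeR adjusted p = 0.000545). CBP60G (AT5G26920), a regulator of salicylic acid synthesis, had a log2 fold change of 2.34 (SE 0.60), a call lost without mock replicate 1 (0.0604), without AZD8055 replicate 3 (0.05004) and with limma voom (0.0717). FRK1 (AT2G19190), a kinase gene used as a marker of pattern-triggered immunity, had no count in mock. Its mean with AZD8055 was 0.539 CPM, below the 1 CPM asked of named genes and 1.83-fold over 3 counts in each mock library.

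Of 35 genes of abscisic acid, cold and drought 9 rose and 0 fell (median log2 fold change 0.35, or 0.11 without AZD8055 replicate 1). LTI78 (AT5G52310), a cold- and drought-induced protein, was at 11.9, 10.8 and 8.99 CPM in mock and 40, 33.3 and 41.8 CPM with AZD8055 (log2 fold change 1.84, SE 0.18, edgeR adjusted p = 7.07e-06). The dehydrins ERD10 (AT1G20450) and COR47 (AT1G20440) rose by log2 fold changes of 1.11 and 0.87, and PP2CA (AT3G11410), a phosphatase that damps abscisic acid signalling, by 0.88. All 3 AZD8055 libraries were above mock in each, and replicate 2 was the lowest of the 3 for LTI78.

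Other hormone groups, the clock and light signalling held few calls. In auxin response 4 of 32 rose and 2 fell. SHY2 (AT1G04240), a repressor of auxin response that shares bases with a gene on the other strand, rose by a log2 fold change of 0.70, and PAP1 (AT3G16500), a different gene from the MYB factor of that name and also an AUX/IAA protein, fell with a log2 fold change of -0.68. PIN3 (AT1G70940), an auxin exporter, was at a log2 fold change of -0.48. Ethylene had 3 of 16 higher, brassinosteroid 2 higher and 1 lower of 14, and gibberellin 1 of 13 higher. EFE (AT1G05010), which makes ethylene, and BR6OX1 (AT5G38970), a late enzyme of brassinosteroid synthesis, rose by log2 fold changes of 0.92 and 1.25, and CPD (AT5G05690), another brassinosteroid enzyme, fell with a log2 fold change of -0.46. The single gibberellin gene, GAI (AT1G14920), lost its call in 5 of the 6 fits without 1 library (adjusted p up to 0.171). Without mock replicate 2 or 3 the auxin genes that rose numbered 1 and 2, and without AZD8055 replicate 3 those that fell numbered 5. The ethylene genes that rose numbered 1 without mock replicate 1 or 3 or AZD8055 replicate 2 or 3, and 1 fell without mock replicate 3 or AZD8055 replicate 1 or 3. The gibberellin genes that rose numbered 0 without mock replicate 2 or 3 or AZD8055 replicate 3. The brassinosteroid genes that rose numbered 1 without mock replicate 1 or 2 or AZD8055 replicate 2 or 3.

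Of 20 clock genes 2 rose and 2 fell, with a median log2 fold change of 0.0033. RVE1 (AT5G17300), a MYB-like factor that links the clock to auxin, was at 31.2, 36.2 and 32.1 CPM in mock and 9.11, 13.3 and 13.7 CPM with AZD8055 (log2 fold change -1.46, SE 0.25, edgeR adjusted p = 0.000905), and its relative EPR1 (AT1G18330) fell with a log2 fold change of -0.87. FKF1 (AT1G68050), a blue-light receptor of flowering time, rose by a log2 fold change of 1.04, while the core genes CCA1 (AT2G46830), TOC1 (AT5G61380) and GI (AT1G22770) were at log2 fold changes of 0.14, 0.012 and 0.23 and not called. The clock genes that rose numbered 1 without mock replicate 3 or AZD8055 replicate 3. Of 25 light signalling genes 5 rose and 2 fell, with HB-2 (AT4G16780), a homeobox gene of the shade response, at a log2 fold change of 0.98. Those that rose numbered 3 without mock replicate 1 or 3, 1 without mock replicate 2 and 2 without AZD8055 replicate 3, and 1 fell without mock replicate 2 or 3 or AZD8055 replicate 2 or 3. The shoot meristem and leaf growth group had 4 of 26 higher, or 15.4%, close to the 14.4% of all genes tested. They were TCP3 (AT1G53230, log2 fold change 0.80), which limits leaf cell division and is overlapped by a non-coding gene, CLV1 (AT1G75820, 0.73), the receptor that limits meristem size, PHV (AT1G30490, 0.46) and AFO (AT2G45190, 0.31). The call of AFO was lost without mock replicate 3 (0.0747) or AZD8055 replicate 1 (0.0518). In the stomatal lineage 1 of 20 fell, ICE1 (AT3G26744, log2 fold change -0.36), or 2 without AZD8055 replicate 3, and 1 rose without AZD8055 replicate 1.

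Of 13 genes of protein folding in the endoplasmic reticulum 4 fell and 0 rose. CNX1 (AT5G61790), calnexin, was at 183, 189 and 197 CPM in mock and 131, 117 and 105 CPM with AZD8055 (log2 fold change -0.69, SE 0.1, edgeR adjusted p = 0.000128), and the chaperone genes ATERDJ3B (AT3G62600) and BIP1 (AT5G28540) fell with log2 fold changes of -0.58 and -0.46. Heat shock genes were mostly too low to test. Of 3 tested, HSP70 (AT3G12580) rose by a log2 fold change of 1.18, and 2 were called without AZD8055 replicate 2. In the group of mitochondrial retrograde and xenobiotic response 6 of 26 fell and 4 rose. AT2G04050, described above, and its neighbour in the family, DTX1 (AT2G04040, log2 fold change -2.50), which pumps toxic compounds out of cells, both fell, and their similar sequences make the split of reads between them uncertain. CYP81D11 (AT3G28740), a cytochrome P450 induced by foreign compounds, was at 27.8, 31.1 and 30.1 CPM in mock and 6.07, 5.53 and 8.43 CPM with AZD8055 (log2 fold change -2.14, SE 0.29, edgeR adjusted p = 0.000159).

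**Figure D5:**
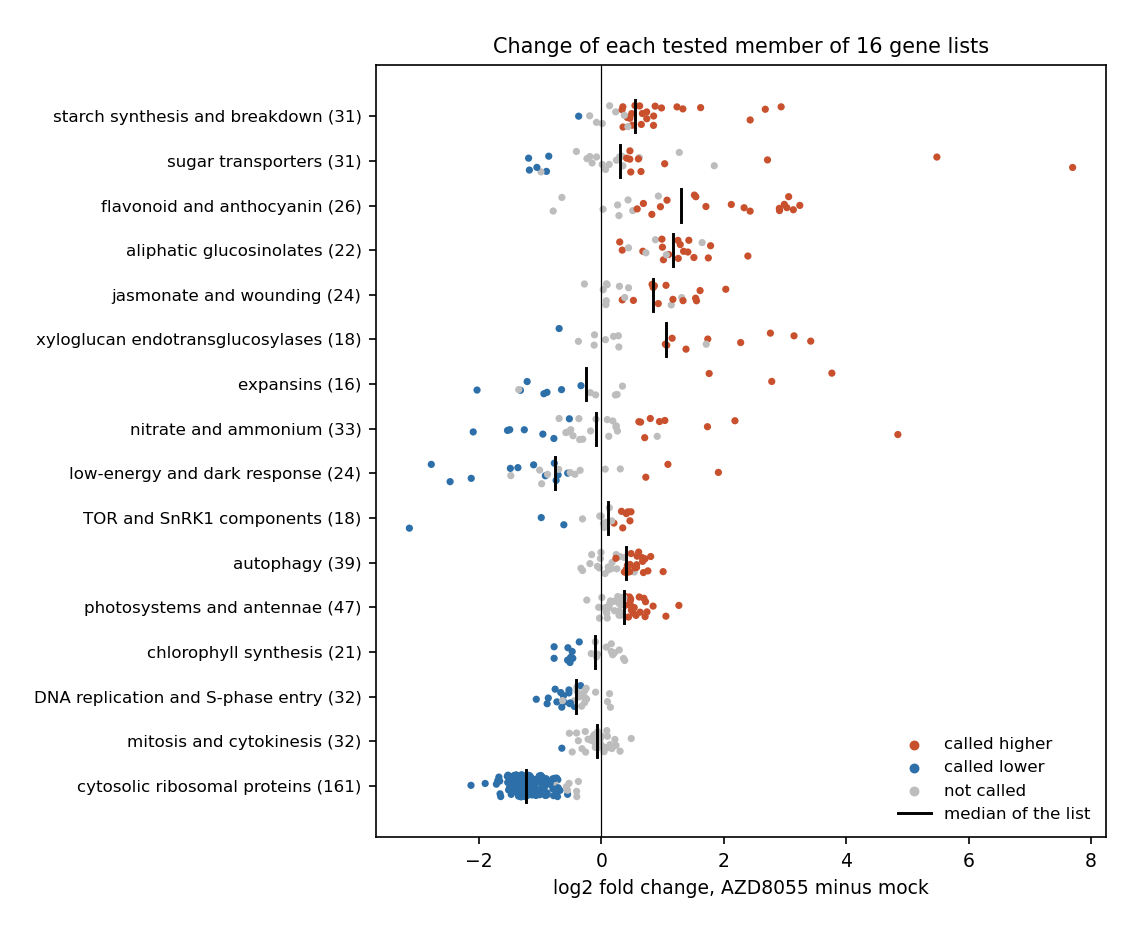
Log2 fold change of every tested member of 16 gene lists (horizontal axis), 1 point for each gene, coloured where called, with the median of each list as a vertical tick and 0 as a line. All 161 ribosomal protein genes lie below 0, and all 22 aliphatic glucosinolate genes lie above it.

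AZD8055 was also set against the mean of KU63794 and TORIN1, a contrast that leaves out the mock libraries. The doses were 2, 20 and 10 µM, so a difference cannot be told apart from one of dose. Of 17933 genes 2, or 0.0112%, were called higher with AZD8055 and 0 (0%) lower by edgeR, while 1837 in either direction had an unadjusted p below 0.05 and DESeq2 called 37 higher and 29 lower. Without AZD8055 replicate 2 the edgeR counts were 31 and 27, and without KU63794 replicate 2 they were 12 and 7. Both genes called were chosen for mention after their values were seen. AT5G08400, an uncharacterized gene, was at 24.2, 28.5 and 23.1 CPM with AZD8055, at 12.6, 11.3 and 11.0 CPM with KU63794 and at 15.1, 13.7 and 16.6 CPM with TORIN1. All AZD8055 values lay above those of the other inhibitors (log2 difference 0.92, SE 0.10, edgeR adjusted p = 0.00395), and against mock, at 19.9, 20.2 and 23.3 CPM, it was not called. LHB1B2 (AT2G34420), an antenna protein of photosystem II opposite a non-coding gene, was at 296.9, 273 and 362 CPM with AZD8055, at 314, 329 and 283 CPM with KU63794 and at 120.0, 129 and 109 CPM with TORIN1. Its AZD8055 and KU63794 libraries overlapped, and all TORIN1 libraries lay below both (log2 difference 0.70, SE 0.10, edgeR adjusted p = 0.0467). The call was lost without AZD8055 replicate 1 (0.083) or 3 (0.123), KU63794 replicate 1 (0.118) or 3 (0.108) and TORIN1 replicate 1 (0.123) or 3 (0.151).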

How the data were processed

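Polyadenylated RNA of Arabidopsis shoot tissue was sequenced in 12 libraries, 3 in each of 4 groups. The deposited raw count files hold whole-number counts for 33602 genes in each library. StringTie (version 1.3.3), DESeq2 (1.18.1) and build TAIR10 are named, with no role, in the submitters' processing notes. The aligner, strand setting and treatment of shared reads were not given in the sources used here. For AZD8055 against mock the authors' deposited table gives a log2 fold change with its standard error, a Wald score and p-values, per the file headers. It lists only genes under its threshold, so it was used for comparison of calls and for GPT2 alone. The columns of per-sample values left unused numbered 0.

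The counts were fitted here with edgeR 4.0.16 (R 4.3.3) on all 12 libraries, which share 1 estimate of the spread. Genes passed edgeR's default filter on low counts, which left 17933, libraries were scaled by TMM, and the robust quasi-likelihood test was used with Benjamini-Hochberg adjustment over all genes tested and a threshold of 0.05. The procedure was first run on simulated counts. Far fewer genes changed there than were called here, and evenly in both directions, so that run does not test the scaling for these data. Levels are CPM on TMM-adjusted totals. Total counts were 14220537, 10552958 and 7706957 in mock and 11975325, 9557783 and 12272364 with AZD8055, and the floor is 3 counts of a library. Because edgeR's fold change of a gene with no count in a group depends on its prior count, such genes are given as a bound on the ratio of group means from that floor. This bound leaves out the counting error and the spread of the group with counts. Alternatives were DESeq2 size factors (RLE) or no scaling factor, no filter beyond 1 count, DESeq2 1.42.0, limma 3.58.1 voom, the replicate number as a block, the 6 libraries alone and each library left out in turn. Replicate numbers are shared between groups, but nothing in the labels ties same-numbered libraries together.

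Gene lists were written by hand from textbook pathways, and the lists and the genes described were chosen with earlier results of these data known. Entries whose gene ID carries another name in the reference were dropped, and counts are over members that passed the filter on low counts. Named genes were called, had at least 1 CPM on average over the 6 libraries, had groups that did not overlap, and were among the 15 largest log2 fold changes in a direction or the 4 smallest adjusted p-values of a list. The same rule for AZD8055 against the other inhibitors, up to 6 genes a direction that were also called against mock, named 0 genes. Other genes that were given values, such as TOR, KIN10, DFR, LDOX, BCAT-2, NIA1, GDH1, ELF5A-3, BAM4 and FRK1, were chosen after their values were seen. Symbols, annotation and promoter sequences come from the RefSeq genome of build TAIR10.1, and positions are those of that build. Figures were drawn with matplotlib 3.10.9 under Python 3.11.15.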

Additional observations from a re-analysis of the deposited data

Results flagged for a closer look

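The response to AZD8055 differed from the mean response to KU63794 and TORIN1 in 2 genes by the test of that difference. LHB1B2 (AT2G34420) differed by 0.70 on the log2 scale, and it was the gene whose AZD8055 libraries overlapped those of KU63794. AT5G08400 differed by 0.92, and its call held in every alternative, with adjusted p between 0.00283 and 0.0312 in the edgeR and limma voom fits. The inhibitors were used at different doses, which cannot be told apart from the compounds.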

How the results depend on the processing

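Between AZD8055 and mock the number of genes called moved by less than 1.5-fold in every alternative run: 1844 to 2683 rose and 2200 to 2986 fell, against 2577 and 2884, and 0 genes were called in opposite directions. The median log2 fold change of all genes tested was 0.0012 with TMM, 0.013 with RLE and -0.025 with library totals only. Of 179 named genes 156 kept their call in every alternative that gave a value and 0 changed direction, and 22 of the other 23 lost it when 1 library was left out. Of 574 called members of the gene lists 432 kept their call throughout.

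AZD8055 against the mean of KU63794 and TORIN1 was not stable. Against 2 genes higher and 0 lower, the genes called higher numbered 8 with RLE, 4 with library totals only, 6 without the filter on low counts and 37 with DESeq2, which called 29 lower. Leaving out 1 library gave 1 to 31 genes higher and 0 to 27 lower, the upper values without AZD8055 replicate 2, and 7 and 1 without TORIN1 replicate 2. The cause was not tested.

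With the replicate number as a block, 2556 genes rose and 2884 fell against mock, and 1 gene remained higher against the other inhibitors, where LHB1B2 (AT2G34420) reached an adjusted p of 0.0964. Deviations of same-numbered mock and AZD8055 libraries from their group means correlated across genes at 0.0464, -0.0142 and -0.0148, so the numbers were not taken as pairs. Depth limits the genes near or below the floor of 0.205 to 0.391 CPM: 10691 of 33602 genes had no count in any of the 6 libraries.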

Other observations

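Gene families, chosen after their values were seen, were counted by the words of their annotation. Genes that already stood in a hand-written list were left out, so each count covers only the remaining members of a family. Of 19 genes of the chaperonin family, ring complexes that fold proteins, 14 fell and 1 rose with a median log2 fold change of -0.69. AT5G16070 was at 117, 124 and 123 CPM in mock and 67.9, 69.8 and 55.0 CPM with AZD8055. Of 57 RNA helicase genes 30 fell and 1 rose. AT4G16630 was at 65.8, 66.8 and 59.1 CPM in mock and 24.5, 23.5 and 16.3 CPM with AZD8055. The single genes given here and below for these families were picked among called members with at least 1 CPM on average and without overlap of the groups. Neither the call nor the lack of overlap is therefore a further result. Among 52 aminoacyl-tRNA synthetases, which charge tRNAs with amino acids, 24 fell and 2 rose, ERS (AT5G64050), the synthetase for glutamate, with a log2 fold change of -0.84 (edgeR adjusted p = 6.2e-06). Of 23 nuclear pore genes 13 fell and 0 rose, NUP155 (AT1G14850) with a log2 fold change of -0.76. Of 103 pentatricopeptide repeat genes, many of which act on organelle RNA, 16 fell and 5 rose, close to the background for falls.

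Of 84 disease resistance genes of the TIR-NBS class 20 rose, or 23.8% against 14.4% of all genes tested, and 0 fell, with a median log2 fold change of 0.33. AT4G19520 was at 6.23, 6.28 and 6.91 CPM in mock and 16.0, 12.5 and 13.8 CPM with AZD8055. Many of these genes have close relatives, so reads may be split between them. Of 27 glutathione S-transferases, which detoxify, 12 rose (44.4%) and 4 fell, and GSTL3 (AT5G02790) was at 356, 357 and 379 CPM in mock and 599.9, 564 and 622 CPM with AZD8055. Of 109 cytochrome P450 genes 21 rose (19.3%) and 8 fell. CYP707A2 (AT2G29090), which inactivates abscisic acid, was at 9.93, 12.5 and 10.4 CPM in mock and 23.0, 21.1 and 30.2 CPM with AZD8055. Of 48 GDSL lipase genes 11 rose (22.9%) and 3 fell. Among these remaining members, the shares that rose were at or below that of all genes tested for 136 F-box genes, of which 16 rose (11.8%) and 4 fell, for 37 WRKY factors, of which 5 rose (13.5%) and 0 fell, and for 43 NAC factors, of which 3 rose and 3 fell (6.98% each). WRKY genes of the lists, such as WRKY18 (AT4G31800), which rose, are not among the 37, so this is not the share of the whole family. Among the WRKY factors that rose was TTG2 (AT2G37260), a regulator of trichomes and seed coats, measured at 2.81, 1.90 and 2.09 CPM in mock and 9.71, 8.40 and 7.83 CPM with AZD8055.

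In 19 genes a library of the 6 reached 10 CPM while another had no count, and 3 of these genes were called. AT1G24996 stood at 133 CPM in AZD8055 replicate 1 and at 0 counts in the other 5 libraries. Among the other inhibitors it was at 166 CPM in KU63794 replicate 1 and 127 CPM in TORIN1 replicate 2 and at 0 counts in the rest. NSP4 (AT3G16410), a nitrile specifier protein, stood at 40.9 CPM in mock replicate 1 alone of the 6, and at 31.0 and 30.4 CPM in KU63794 replicates 1 and 2. The seed storage gene CRU3 (AT4G28520) ranged from 0 to 84.1 CPM among AZD8055 libraries and from 14.6 to 32.9 CPM among mock libraries. None of these 3 was called.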
